A study of Mus musculus with 25 samples.

Results

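The nuclear-encoded subunits and assembly factors of the mitochondrial respiratory chain were followed on 25 arrays of mouse embryoid bodies (EBs), the aggregates that mouse embryonic stem cells (mESCs) form when they begin to differentiate. They were taken as every probe annotated with 1 gene symbol that begins with Nduf (complex I), Uqcr (complex III), Cox4 to Cox8 (complex IV) or Atp5 (complex V, the ATP synthase). The rule gave 128 of 45281 probes, of 83 genes, with 67 probes of 43 genes in complex I, 10 of 7 in complex III, 22 of 17 in complex IV and 29 of 16 in complex V. Ndufa4, a subunit of complex IV, and Cox7a2l, a protein related to a subunit of that complex, were counted with complex IV.

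All EBs were of C57BL/6 background and were exposed to a chemical for 48 h from the withdrawal of LIF, the cytokine that holds mESCs undifferentiated. Each of 12 chemicals was given at 2 doses, with 1 array per dose, and 1 array held EBs exposed to the solvent, 0.1% DMSO. Estradiol (E2), dehydrotestosterone (DHT, as the labels spell it), triiodothyronine (T3), dexamethasone (DEX), TCDD (a dioxin) and the hydroxylated polychlorinated biphenyl labelled 4OHPCB (PCB) were given at 1 and 10 nM, and bisphenol A (BPA) at 1 and 100 pM. Thalidomide (TMD), permethrin (PMT) and cyclopamine (CPM) were given at 100 nM and 0.01 mM, and the phthalate DEHP and methoprene acid (MPA) at 0.001 and 0.1 mM. The last 5 are called the micromolar chemicals here, and T3, DEX, TCDD and PCB the nanomolar chemicals they were compared with. A replicate is therefore the other dose of the same chemical. The p-values below measure a difference against the spread between doses, pooled over the chemicals. Exceptions are the tests of dose, which take out a mean dose effect, and the fit with the chemical as a random block.

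The respiratory chain passes electrons from NADH through complex I, and from succinate through complex II, to ubiquinone, complex III, cytochrome c and complex IV, where oxygen is reduced. Complexes I, III and IV pump protons across the inner membrane, and complex V uses the return flow to make ATP. Most subunits are encoded in the nucleus and imported, and several complex IV subunits exist as pairs of isoforms, one in most tissues and another in heart and skeletal muscle, lung or testis. The balance between glycolysis and respiration changes as mESCs differentiate.

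Regulation of these genes has been linked to the factors NRF1, GABP (of the ETS family), YY1 and ERR alpha. RefSeq promoter windows of the GRCm38.p6 build, from 250 bases before to 50 bases after a gene's start, were held for 69 of the 83 genes, as 74 windows. The letters searched on both strands were GCGCA and GCGC with any 1 base between them for NRF1, CCGGAAG for ETS factors, AANATGGC for YY1 and TCAAGGTCA for ERR alpha, and where 2 matches overlapped both were counted. The NRF1 letters were in 23% of the member windows against 4.60% of all 32851 windows, the ETS letters in 21.6% against 8.86%, the YY1 letters in 25.7% against 6.05%, and the ERR alpha letters in 1.35% against 0.423%. A match is a string of letters and no evidence of binding. The 250 bases before the start are shown for the complex IV pair whose probes differed between the chemicals in opposite directions, Cox7a1 and Cox7a2, and for 3 members whose windows hold matches, with matches in capitals.
Cox7a1, chr7:30183921-30184170, plus strand: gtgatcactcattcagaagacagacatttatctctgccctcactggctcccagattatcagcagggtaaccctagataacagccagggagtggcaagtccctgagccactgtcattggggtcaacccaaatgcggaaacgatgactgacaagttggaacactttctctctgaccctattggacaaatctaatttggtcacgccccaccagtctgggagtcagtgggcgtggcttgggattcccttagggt
Cox7a2, chr9:79759854-79760103, minus strand: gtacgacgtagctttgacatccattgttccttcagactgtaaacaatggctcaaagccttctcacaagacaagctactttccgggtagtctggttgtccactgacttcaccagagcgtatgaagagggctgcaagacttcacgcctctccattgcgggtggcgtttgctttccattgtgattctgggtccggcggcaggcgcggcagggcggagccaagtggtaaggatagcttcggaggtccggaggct
Cox6a1, chr5:115348959-115349208, minus strand: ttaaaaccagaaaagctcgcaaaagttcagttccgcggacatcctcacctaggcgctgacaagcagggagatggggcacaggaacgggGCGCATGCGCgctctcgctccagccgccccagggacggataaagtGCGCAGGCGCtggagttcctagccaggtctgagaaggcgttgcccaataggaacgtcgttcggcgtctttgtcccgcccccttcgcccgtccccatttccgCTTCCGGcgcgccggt
Atp5k, chr5:108434400-108434649, minus strand: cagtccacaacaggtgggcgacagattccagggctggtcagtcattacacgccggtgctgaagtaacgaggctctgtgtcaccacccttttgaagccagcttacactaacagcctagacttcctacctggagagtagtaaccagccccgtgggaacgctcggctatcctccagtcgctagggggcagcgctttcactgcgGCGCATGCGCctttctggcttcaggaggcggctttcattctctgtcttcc
Ndufa5, chr6:24527691-24527940, minus strand: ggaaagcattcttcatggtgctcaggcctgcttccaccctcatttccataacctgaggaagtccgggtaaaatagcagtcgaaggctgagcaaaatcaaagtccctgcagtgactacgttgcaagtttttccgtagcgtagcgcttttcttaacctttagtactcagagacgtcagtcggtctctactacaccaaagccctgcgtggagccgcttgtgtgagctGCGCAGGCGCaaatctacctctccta

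Cox6a1 carried 2 NRF1 matches, starting 162 and 117 bases before the start, and an ETS match 16 bases before it, while none of the 4 strings was in the stretches of Cox7a1 and Cox7a2. The GC content was 51.2% for Cox7a1, 54.8% for Cox7a2 and 62.8% for Cox6a1, against a median of 52.4% over all promoters. By complex, the NRF1 letters were in the windows of 8 of 38 complex I genes, 1 of 5 complex III genes, 1 of 12 complex IV genes and 6 of 14 complex V genes, and the YY1 letters in 14, 0, 1 and 4 of them.

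The arrays gave 14451 to 16381 probes above background at a detection p under 0.01, and the non-normalized signal differed in brightness between groups of arrays. The 99th percentile of an array's signal was 7982 to 10633 for E2 and DHT and 8463 to 11884 for T3, DEX and TCDD, against 12505 to 12814 for PCB, 11065 to 15996 for the micromolar chemicals, 10993 to 13400 for BPA and 11977 for DMSO. Signals were therefore quantile-normalized, and levels are given as log2 of the normalized signal. The authors' normalized values had a highest value of 61888 on every array of DMSO, E2, DHT and BPA and of 63939 on every array of the other chemicals. They were therefore taken as separately normalized sets, which no label names. That normalization does not enter the levels given here. A chemical of the second set and any handling particular to its set cannot be told apart where it is compared with DMSO. No slide was given in the sources used here, and fewer cells of a type and less RNA per cell cannot be told apart in such bulk samples.

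Of the 128 member probes, 94 were detected on all 25 arrays, 19 on some and 15 on none. A total of 110 probes of 78 genes, detected on at least 2 arrays, entered the tests, with 61 in complex I, 7 in complex III, 19 in complex IV and 23 in complex V. Ndufs1, Ndufaf6, Uqcrfs1, Cox7b2 and Cox8b had only probes at background on every array. The first is a core subunit of complex I and Uqcrfs1 the Rieske iron-sulfur protein of complex III, so their absence concerns the probes and not necessarily the RNA. The mean log2 signal ran from 5.27 (Ndufc2, ILMN_1251341) to 14.48 (Ndufs6, ILMN_2842572) in complex I and from 8.34 (Uqcrq, ILMN_1252263) to 14.59 (Uqcr10, ILMN_2636384) in complex III. It ran from 5.34 (Cox6b2, ILMN_1229627) to 14.57 (Cox5b, ILMN_1241962) in complex IV and from 6.12 (Atp5k, ILMN_1214830) to 15.79 (Atp5b, ILMN_2598972) in complex V, and these are levels of probes, which differ in their own response.

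Most members differed between the 12 chemicals. In limma's moderated F-test with Benjamini-Hochberg adjustment, 93 of 110 member probes passed 0.05, against 74.6% of all probes tested and 81.6% of those detected on all arrays. They were 49 of 61 in complex I, 6 of 7 in complex III, 17 of 19 in complex IV and 21 of 23 in complex V. The lowest adjusted p-values of this limma F-test belonged to Atp5a1, the alpha subunit of the ATP synthase head (ILMN_2633229, 8.26e-14), the complex I assembly factor Ndufaf2 (1.32e-11), the accessory subunit Ndufv3 of the NADH-binding module (ILMN_2668977, 1.95e-10) and the complex IV isoforms Cox7a1 (5.67e-10) and Cox7a2 (1.21e-09). At the other end stood Atp5b, the catalytic beta subunit, whose log2 signal was 15.66 on the lowest, 15.79 on the median and 15.89 on the highest of the 25 arrays (adjusted p = 0.778). The raw signal of that probe reached 62956, where the highest signal of an array was 59512 to 66735. Ndufa1, Ndufv2, Ndufa13 and Uqcr11 were the other members with the weakest differences, at limma F-test adjusted p from 0.272 to 0.601.

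Against the single DMSO array, E2, DHT, T3, DEX and TCDD gave few calls among the members, and PCB, BPA and the micromolar chemicals gave more. The same held for all probes, whose shares are given with the counts. E2 and DHT gave 0 members at an adjusted p under 0.05 in limma (0% of all probes), with 8 and 1 members at an unadjusted p under 0.05, or 7.27% and 0.909% of the members against 10.9% and 5.42% of all probes. T3 gave 2 members, Ndufab1 and Atp5j2, both lower (background 3.34%, and 1.17% lower), DEX 1, Atp5mpl, lower (3.32%, and 1.23% lower) and TCDD 0 (3.02%), with 20, 19 and 20 at an unadjusted p under 0.05. These were 18.2%, 17.3% and 18.2% of the members, against 19.1%, 19.6% and 19.8% of all probes. The T3 and DEX calls rested on both arrays of the chemical, since leaving out either array left 0. BPA gave 11 members, 7 higher and 4 lower, a smaller share than the 19.9% of all probes (9.59% higher and 10.3% lower).

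PCB gave 30 members against 20.8% of all probes, and 23 of them were higher, where 10.8% of all probes were higher and 10.1% lower. By complex they were 14 higher and 1 lower in complex I, 0 and 3 in complex III, 1 and 1 in complex IV, and 8 and 2 in complex V. TMD gave 34 members, 12 higher and 22 lower, against 29.5% of all probes (14.9% and 14.6%). PMT gave 41, 19 and 22, against 31.3% (15.5% and 15.7%), and CPM 36, 17 and 19, against 29.1% (14.7% and 14.4%). DEHP gave 29, 11 and 18, against 23.8% (11.9% and 11.9%), and MPA 37, 14 and 23, against 26.7% (13.1% and 13.6%). In complex IV the calls for these 5 chemicals were 1 higher and 5 lower, 1 and 6, 1 and 6, 0 and 3, and 0 and 6. With each array scaled to its median in place of quantile normalization the splits were 19 higher and 0 lower for PCB, 22 and 4 for TMD, 20 and 14 for PMT, 16 and 14 for CPM, 14 and 5 for DEHP, 13 and 23 for MPA and 15 and 3 for BPA. All 12 comparisons share the DMSO array.

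**Figure D1:**
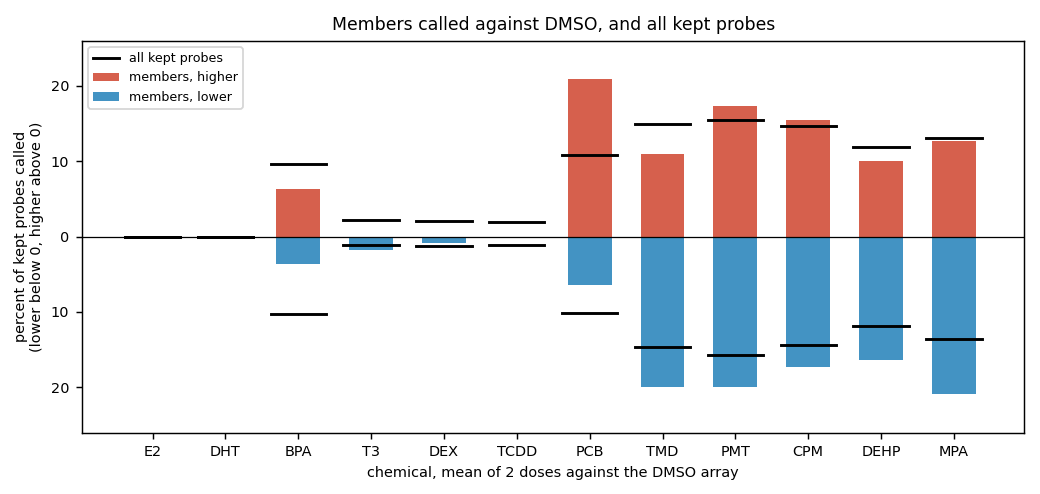
Percent of the 110 tested member probes called higher (red, above 0) or lower (blue, below 0) than the DMSO array at an adjusted p under 0.05, for each chemical as the mean of its 2 doses, with black lines for the percent of all tested probes. PCB was the chemical with 23 higher against 7 lower members, and the bars of E2, DHT and TCDD are at 0.

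The complexes were also described array by array, with no test. The deviation of a probe from its mean over the 25 arrays, taken as a median over the probes of a complex, was 0.12 and 0.34 for complex I on the PCB arrays, against -0.06 to 0.15 on all other arrays. Complex V had -0.12 to -0.03 on the 6 arrays of T3, DEX and TCDD and 0.03 and 0.26 on those of PCB. It had -0.06 to 0.17 on the micromolar arrays, -0.06 to 0.05 with E2 and DHT, 0.05 and 0.09 with BPA and 0.01 with DMSO. Complex IV lay at -0.19 to 0.03 on the micromolar arrays and at -0.02 to 0.20 on all others. Complex III lay at -0.19 to 0 on the micromolar arrays and at 0.08 to 0.20 on those of DMSO, E2, DHT and BPA. The nanomolar arrays overlapped the micromolar ones there, at -0.10 to 0.15 with T3, DEX and TCDD and -0.12 and -0.01 with PCB. These are descriptions of a list over arrays that differed in brightness as given above, and the part of brightness in them was not tested.

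**Figure D2:**
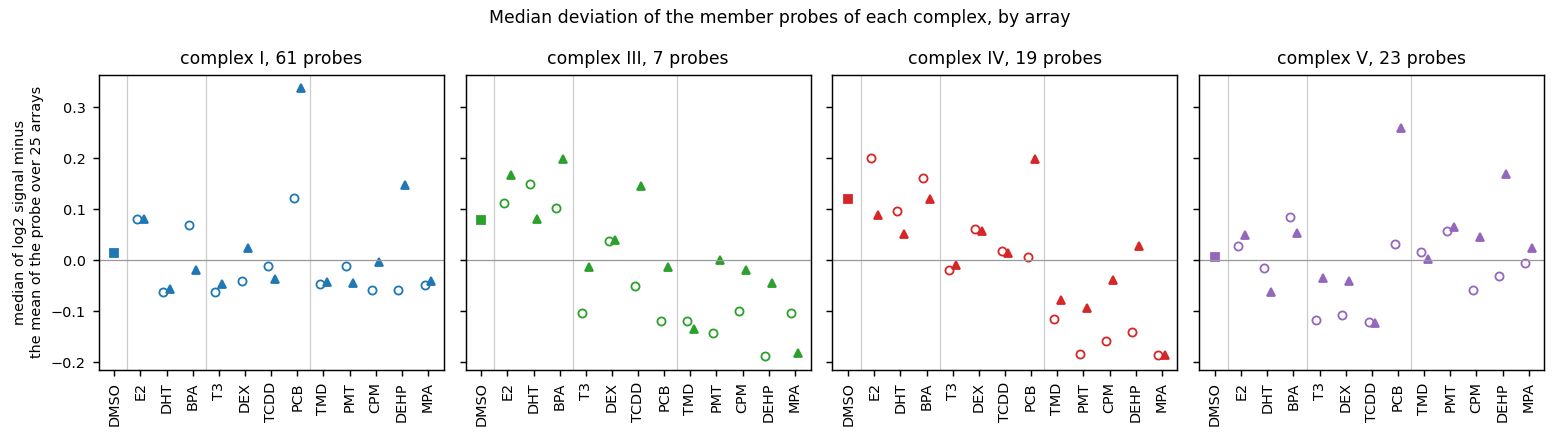
Median over the tested probes of a complex of the log2 signal minus the probe's mean over all arrays (y axis), by chemical (x axis), with open circles for the lower dose, triangles for the higher dose and a square for DMSO. Vertical lines part DMSO, the chemicals normalized with DMSO by the authors, the nanomolar and the micromolar chemicals. The PCB arrays lie at 0.12 and 0.34 in complex I, and complex IV at -0.19 to 0.03 on the micromolar arrays.

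The micromolar chemicals were compared with the nanomolar ones as the mean of 5 chemicals against the mean of 4, 10 arrays against 8. The groups differ in both chemical and dose, and these cannot be told apart. Their arrays also differed in brightness before normalization. The 99th percentile was 11065 to 15996 on the micromolar arrays, 8463 to 11884 with T3, DEX and TCDD, and 12505 to 12814 with PCB. The part of brightness in the calls below was not tested. Of the 110 members 67 differed in limma, 29 higher and 38 lower, against 48.5% of all probes (24.1% higher and 24.4% lower). Complex I had 15 higher and 21 lower, complex III 2 and 4, complex IV 3 and 9, and complex V 9 and 4. The median log2 difference was -0.03, -0.14, -0.12 and 0.04 in that order, against -0.003 for all probes. Under median scaling 34 members were higher and 19 lower, and the median of complex I was 0.06. With the chemical as a random block, 43 members passed, 18 higher and 25 lower, against 26.3% of all probes in that fit. The fit allowed arrays of the same chemical to be correlated, with a consensus correlation of 0.349 used for all probes. Arrays remained its unit, so a difference with chemicals as the unit was not tested.

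In complex IV the largest differences were those of isoforms. Cox7a1, the heart and skeletal muscle form of subunit VIIa, had a log2 signal of 10.94 with DMSO. It was 11.002 and 10.999 with E2, 11.01 and 10.84 with DHT, and 10.24 and 10.18 with BPA, lower dose first. On the arrays of T3, DEX and TCDD it ran from 10.65 through a median of 10.71 to 10.77, with PCB it was 10.57 and 11.07, and on the 10 micromolar arrays it ran from 9.85 through 9.96 to 10.31. Every micromolar array thus lay below every nanomolar one, and BPA lay below E2, DHT and DMSO. The difference was -0.73 ± 0.06 (limma, SE; adjusted p = 5.97e-11) between micromolar and nanomolar chemicals and -0.75 ± 0.11 (adjusted p = 3.72e-06) between BPA and the mean of E2 and DHT. These comparisons have no array in common. Under median scaling the BPA difference was -0.20 (limma adjusted p = 0.16) while the median of all probes stood at 0.51, and the micromolar difference was -0.63.

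Cox7a2, the widely expressed form of the same subunit, showed the opposite order. Its log2 signal was 8.93 with DMSO, 8.64 and 8.47 with E2, 8.61 and 8.69 with DHT, and 9.31 and 9.18 with BPA. It ran from 8.61 through 8.77 to 9.04 with T3, DEX and TCDD, was 9.36 and 9.78 with PCB, and ran from 9.35 through 9.57 to 9.93 on the micromolar arrays. Micromolar, PCB and BPA arrays were above all the others. The difference was 0.65 ± 0.07 for micromolar against nanomolar chemicals (limma adjusted p = 1.62e-08), 0.64 ± 0.13 for BPA against E2 and DHT (2.75e-04) and 0.78 ± 0.12 for PCB against T3, DEX and TCDD (2.20e-05). Cox7a1 itself did not pass in that last comparison (0.11 ± 0.11, limma adjusted p = 0.481). The third relative, Cox7a2l, differed by 0.45 ± 0.08 between BPA and E2 with DHT (limma adjusted p = 7.61e-05), and between micromolar and nanomolar chemicals by an amount near 0 (adjusted p = 0.937).

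Cox6a2, the muscle form of subunit VIa, was a dim probe detected on 12 arrays. Its log2 signal was 6.53 with DMSO, 6.17 to 6.79 on the 4 arrays of E2 and DHT, 5.78 and 5.07 with BPA, 6.34 to 7.00 on the 6 arrays of T3, DEX and TCDD, and 5.81 and 6.25 with PCB. On the micromolar arrays it ran from 4.68 to 5.63 and was detected on 0 of 10, against 7 of 8 nanomolar arrays. The nanomolar mean was at least 1.53-fold above the lowest detectable level on the micromolar arrays (limma adjusted p = 1.90e-09). The E2 and DHT mean was likewise at least 1.52-fold above that of BPA, which was detected on 0 of 2 arrays (adjusted p = 0.00105). Without the higher dose of BPA that call was lost (fitted difference -0.70, limma adjusted p = 0.084).

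Cox4i2, the form of subunit IV known from lung and from hypoxia, was detected on 6 arrays, 2 of 4 with E2 and DHT and 4 of 6 with T3, DEX and TCDD. It was at background on the DMSO, BPA, PCB and micromolar arrays, and the measured means were 5.84 for the nanomolar and 4.76 for the micromolar chemicals (limma adjusted p = 1.18e-07), too close to background for a fold. Cox6b2, the testis form of subunit VIb, was measured on all arrays by ILMN_2764551. It had 10.05 with DMSO, 9.69 to 10.48 on the nanomolar arrays, 8.99 to 9.35 with TMD, PMT and CPM, and 9.51 to 9.84 with DEHP and MPA. The difference between micromolar and nanomolar chemicals was -0.54 ± 0.07 (limma adjusted p = 5.57e-07). Its other probe, ILMN_1229627, was detected on 2 arrays and did not pass (adjusted p = 0.0569).

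The common partners moved less. Cox6a1 was lower with the micromolar chemicals by both probes, -0.17 ± 0.04 (ILMN_2638875, limma adjusted p = 9.25e-04) and -0.12 ± 0.05 (ILMN_2605400, 0.0303). Cox6b1 was lower by 1 of its 2 probes (-0.23 ± 0.05, limma adjusted p = 4.55e-04). Cox4i1 differed by an amount near 0 between micromolar and nanomolar chemicals (adjusted p = 0.964). It was 14.63 and 14.47 with BPA against 13.88 to 14.25 with E2 and DHT, a difference of 0.53 ± 0.09 (limma adjusted p = 2.00e-05). Of the remaining isoforms, Cox8c, a testis form of subunit VIII, was detected with BPA on both arrays and with E2 and DHT on none, at least 1.47-fold higher (limma adjusted p = 0.0079), and without the lower dose of BPA this call was lost (adjusted p = 0.215). Cox7b2 and Cox8b were at background throughout.

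**Figure D3:**
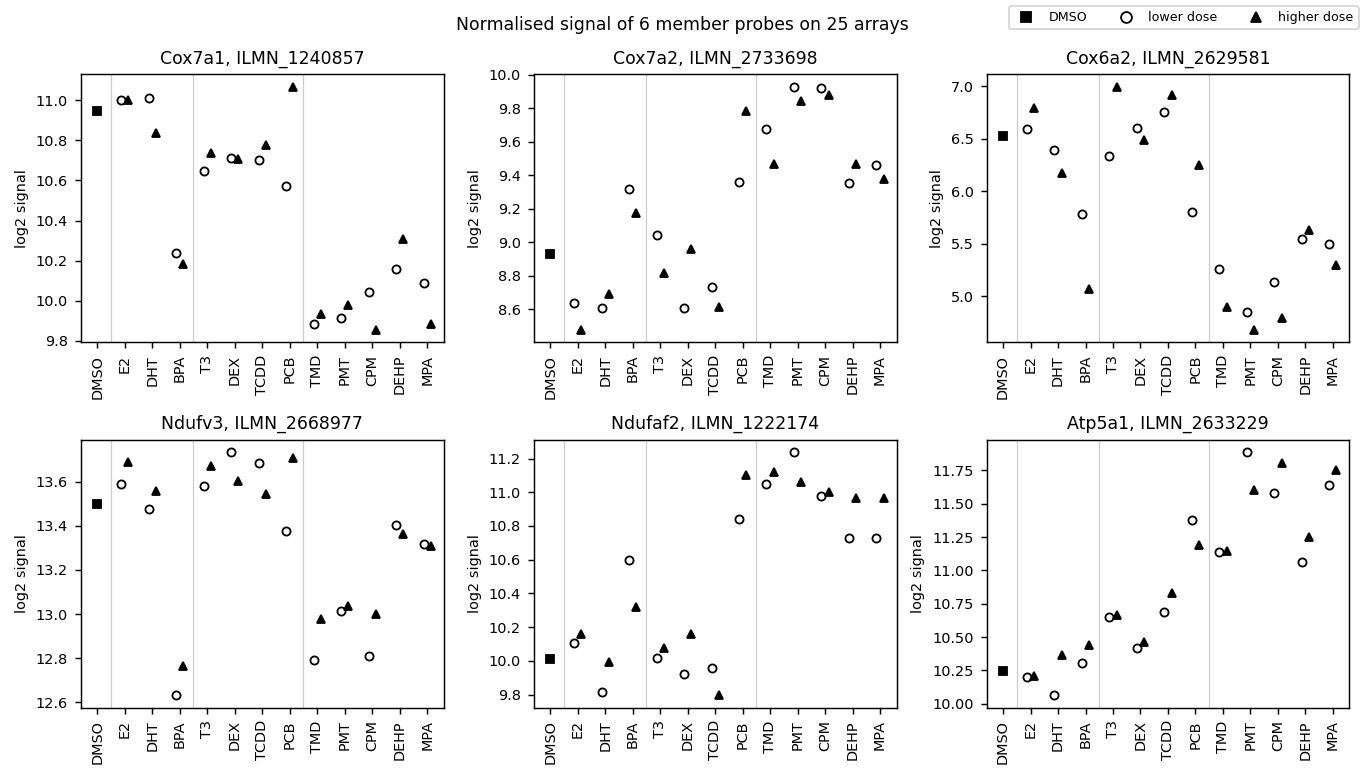
Normalized log2 signal (y axis, not starting at 0) of 6 member probes on the 25 arrays, by chemical (x axis), with open circles for the lower dose, triangles for the higher dose and a square for DMSO. Vertical lines part the groups of chemicals as in the plot of complex medians. Cox7a1 lies at 9.85 to 10.31 on the micromolar arrays, all below the nanomolar ones, and Cox7a2 at 9.35 to 9.93.

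In complex I, Ndufv3 had the clearest lower signal. The probe ILMN_2668977 gave 13.50 with DMSO, 13.59 and 13.69 with E2, 13.48 and 13.56 with DHT, 12.63 and 12.76 with BPA, 13.54 to 13.73 with T3, DEX and TCDD, and 13.38 and 13.71 with PCB. On the arrays of TMD, PMT and CPM it ran from 12.79 through 12.99 to 13.04, and with DEHP and MPA from 13.31 to 13.40. DEHP and MPA thus lay between the other micromolar chemicals and most of the nanomolar arrays, and that gap was not tested. The difference was -0.51 ± 0.05 between micromolar and nanomolar chemicals (limma adjusted p = 6.14e-10) and -0.88 ± 0.09 between BPA and E2 with DHT (2.09e-09). A second probe, ILMN_3008277, gave -0.41 ± 0.05 and -0.46 ± 0.09, of which the latter was 0.004 under median scaling, and the other, dimmer probe, ILMN_2688822, did not pass in either comparison.

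Ndufaf2, which helps to assemble complex I, had 10.01 with DMSO, 9.82 to 10.16 with E2 and DHT, 10.60 and 10.32 with BPA, and 9.79 to 10.16 with T3, DEX and TCDD. It had 10.84 and 11.10 with PCB and ran from 10.73 through 10.99 to 11.24 on the micromolar arrays. PCB and micromolar arrays were all above the rest, at 0.75 ± 0.06 for micromolar against nanomolar chemicals (limma adjusted p = 3.85e-11) although PCB stood in the latter. The membrane-arm subunit Ndufb9 behaved alike, with 9.21 for DMSO, 8.65 to 8.95 with E2 and DHT, 9.16 and 8.85 with BPA, 8.66 to 8.96 with T3, DEX and TCDD, 9.80 and 10.12 with PCB, and 9.43 to 10.10 on the micromolar arrays (0.69 ± 0.09, limma adjusted p = 3.57e-07). Of the 4 probes of Ndufs4, an accessory subunit needed for a stable complex, 3 were higher by 0.36 to 0.40, and the brightest did not pass (-0.11 ± 0.05, limma adjusted p = 0.0671). Lower members included Ndufa6 (-0.34 ± 0.04, limma adjusted p = 1.36e-07) and the core subunits Ndufs7 (-0.24) and Ndufs8 (-0.21), while the core subunit Ndufs3 was higher (0.14). By role, 11 of the 46 accessory subunit probes were higher and 16 lower, against 24.1% and 24.4% of all probes. Of the 5 core subunit probes 1 was higher and 2 lower, and of the 9 assembly factor probes 3 and 2. The remaining probe of that complex, annotated to the pseudogene copy Ndufs5-ps, was lower, and reads of its parent gene cannot be told apart from it.

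In complex V, Atp5a1 (ILMN_2633229) had 10.25 with DMSO, 10.06 to 10.37 with E2 and DHT, 10.31 and 10.44 with BPA, 10.42 to 10.83 with T3, DEX and TCDD, and 11.38 and 11.19 with PCB. With TMD it was 11.13 and 11.15, with DEHP 11.06 and 11.25, with PMT 11.89 and 11.60, with CPM 11.58 and 11.80, and with MPA 11.64 and 11.76. PCB and micromolar arrays thus lay above all the others, while TMD lay below PCB and DEHP overlapped it. Micromolar and nanomolar chemicals differed by 0.70 ± 0.06 (limma adjusted p = 4.25e-11). The dim second probe, ILMN_2570875, did not pass there (0.06 ± 0.15). Atp5md, a small membrane subunit, was higher by 0.92 ± 0.14 (limma adjusted p = 4.17e-06) and Atp5e, the epsilon subunit, by 0.52 ± 0.11 (1.77e-04), while Atp5c1, the gamma subunit of the rotor, was lower by 0.19 (-0.19 ± 0.05, 0.0017). The F1 head had 2 higher and 1 lower of 6 probes, the c ring 0 and 1 of 2, and the stalk and membrane subunits 7 and 2 of 15. Of all probes 24.1% were higher and 24.4% lower.

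In complex III both core proteins were lower with the micromolar chemicals. Uqcrc2 had 13.54 with DMSO, 13.35 to 13.73 with E2 and DHT, 13.26 and 13.49 with BPA, 13.15 to 13.47 with T3, DEX and TCDD, 13.04 and 13.21 with PCB, and 12.76 to 13.08 on the micromolar arrays, where only PCB overlapped the latter. The difference was -0.33 ± 0.05 (limma adjusted p = 4.69e-06), and that of Uqcrc1 -0.27 ± 0.05 (3.57e-05). The dim probe of Uqcrq was higher (0.34 ± 0.12, limma adjusted p = 0.0203), and 6 of the 18 fits that left out 1 array lost that call, with differences down to 0.26. The hinge protein Uqcrh was higher by 0.12 on the micromolar arrays and by 0.34 ± 0.08 with BPA against E2 and DHT (limma adjusted p = 6.19e-04), and 2 of the 18 fits lost the first of these calls.

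Bright and dim member probes differed in direction. Among the 55 member probes with a mean log2 signal of 12 and over, 4 were higher and 28 lower with the micromolar chemicals, against 26.4% higher and 30.7% lower of the 1315 probes of all genes in that range. Among the 27 member probes under 9, 14 were higher and 2 lower, against 22.5% and 21% of 12556 probes. The 28 members between had 11 higher and 8 lower, against 27.4% and 30.7%. The median log2 difference of the members was -0.12, 0.34 and 0.04 in these ranges, against -0.01, 0.01 and -0.01 for all probes. In the dimmest range Cox6a2 and Cox4i2 were the 2 that were lower. A higher median of the members under 9 than at 12 and over was not particular to the micromolar chemicals. For T3, DEX and TCDD against E2 and DHT it was 0.25 and -0.10. For PCB against T3, DEX and TCDD it was 0.60 and 0.03, and for BPA against E2 and DHT 0.19 and -0.02. The medians of all probes lay from -0.02 to 0.07 in these ranges.

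**Figure D4:**
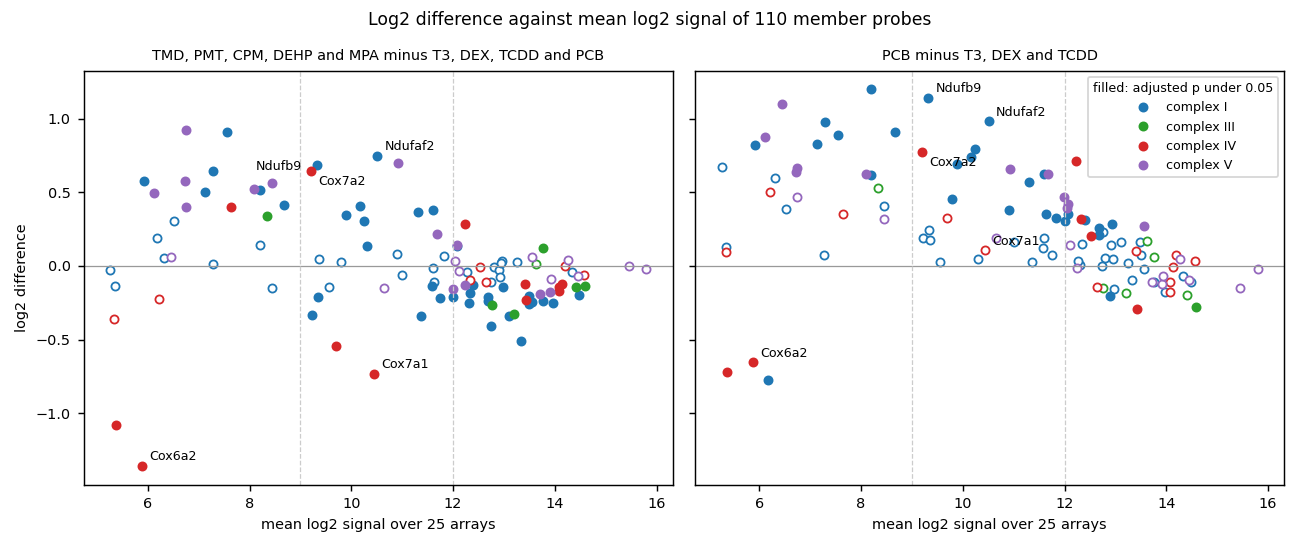
Log2 difference (y axis) against the mean log2 signal over 25 arrays (x axis) of the 110 tested member probes, coloured by complex and filled where limma's adjusted p was under 0.05, for micromolar minus nanomolar chemicals (left) and PCB minus T3, DEX and TCDD (right). Dashed lines mark 9 and 12. On the left 28 of the 55 probes at 12 and over are lower, and on the right 39 of all members are higher and 6 lower.

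Probes of 1 gene did not always agree. Of 25 genes with several tested probes, 14 had probes of both signs in the comparison of micromolar with nanomolar chemicals, and Atp5j, Atp5pb, Ndufab1 and Ndufaf5 had probes called in opposite directions. Ndufaf5, an assembly factor, gave 0.64 ± 0.12 by ILMN_1216813, which ran at log2 7.33 to 8.43 on the micromolar arrays, and -0.33 ± 0.06 by the brighter ILMN_2747677 (limma adjusted p = 7.66e-05 and 7.15e-05). Cox6a1, Ndufa3, Ndufb10 and Uqcr10 had every probe called one way. Which transcripts each probe reads was not tested.

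PCB differed from T3, DEX and TCDD, given at the same doses, by more higher than lower calls, mainly in complexes I and V. Of the members 45 passed in limma, 39 higher and 6 lower, against 14.5% higher and 13.8% lower of all probes (28.4% in either direction). They were 24 higher and 2 lower in complex I, 0 and 1 in complex III, 4 and 3 in complex IV and 11 and 0 in complex V. The medians were 0.19, -0.15, 0.09 and 0.32, against -0.01 for all probes, and with 1 probe per gene that of complex V was 0.16. Dimmer probes differed more. The median of the members was 0.60 at a mean log2 signal under 9, 0.34 at 9 to 12 and 0.03 at 12 and over. Without the higher dose of PCB 23 members passed, 18 higher and 5 lower, so that this array carried part of the count. Under median scaling 49 were higher and 2 lower.

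Ndufb10, a subunit of the membrane arm, had 7.47 to 8.13 with T3, DEX and TCDD and 8.84 and 9.20 with PCB by ILMN_2900216, and DMSO stood at 7.67. The difference was 1.20 ± 0.18 (limma adjusted p = 8.38e-06), and the second probe gave 0.79 ± 0.15 (1.63e-04). Ndufb9 was higher by 1.14 ± 0.16 (limma adjusted p = 2.39e-06), Ndufaf2 by 0.99 ± 0.11 (3.66e-08) and Cox6c, which had 11.84 to 11.97 with T3, DEX and TCDD and 12.59 and 12.63 with PCB, by 0.71 ± 0.13 (9.54e-05). In complex V, Atp5a1 was higher by both probes, 0.66 ± 0.10 (limma adjusted p = 8.38e-06) and 1.10 ± 0.25 (0.00159, lost without the higher PCB dose, 0.0774), and Atp5h, the d subunit of the stalk, by 0.63 ± 0.10 (2.06e-05). The core subunits Ndufs3, Ndufs8 and Ndufs7 were higher by 0.35, 0.31 and 0.21. The 6 lower members were Uqcr10 (ILMN_2636384, -0.28 ± 0.07, limma adjusted p = 0.004), Cox6b1 (ILMN_1254971, -0.29 ± 0.09, 0.0133), Ndufa10 (-0.20 ± 0.07, 0.0334) and the dim probes of Ndufb8, Cox6a2 and Cox4i2. Leaving out 1 of the PCB arrays ended each of these calls, the lower dose for Cox6b1 and Ndufa10, the higher dose for Uqcr10 (adjusted p = 0.0503) and Cox4i2, and either dose for Ndufb8 and Cox6a2.

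In PCB against T3, DEX and TCDD other lists also had more higher than lower calls. Of all probes 14.5% were higher and 13.8% lower. The lists included the cytosolic ribosome and the proteasome, so that higher calls were not particular to the chain. Probes of the mitochondrial genome, which encodes the remaining chain subunits, were higher with PCB in 7 of 7 cases, by 0.38 (ND4) to 1.75 (ATP6), with a median of 1.06. Other assembly factors of the chain had 10 probes higher and 1 lower of 42. Complex II and its assembly factors had 6 of 11 probes higher and 0 lower, led by Sdhd (0.94 ± 0.17, limma adjusted p = 8.43e-05). Mitochondrial ribosomal proteins had 37 higher and 3 lower of 113 probes, cytosolic ribosomal proteins 15 and 2 of 75 and proteasome subunits 19 and 4 of 59. The PCB arrays were also brighter than those of T3, DEX and TCDD, as given above, and the part of this was not tested.

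BPA was compared with E2 and DHT, the chemicals that the authors normalized with it. Of the members 26 passed in limma, 17 higher and 9 lower, against 39.4% of all probes (21.8% higher and 17.6% lower). The members' share lay below that of all probes, and median scaling gave 84 higher and 3 lower where the median of all probes was 0.51. Leaving out the lower dose of BPA left 13. The higher members included Cox6c (0.47 ± 0.14, limma adjusted p = 0.00661), Uqcrc1 (0.29 ± 0.09, 0.00918, lost without the lower BPA dose), Ndufaf2 (0.44 ± 0.11, 0.00247) and Atp5k, detected on both BPA arrays and on no array of E2 and DHT. Ndufaf4 was lower by both probes (-0.63 ± 0.20 and -0.31 ± 0.10, limma adjusted p = 0.0106 and 0.0175), and the call of the first, ILMN_2551723, was lost without the higher dose of BPA or of E2. Between this comparison and that of micromolar with nanomolar chemicals, which share no array, 18 member probes were called in both. They were 26.9% of the micromolar and 69.2% of the BPA calls, against 45.5% and 56.0% over all probes. Of these 18, 15 had the same sign, or 83.3%, against 77.5% of the 4222 probes of all genes called in both.

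T3, DEX and TCDD differed from E2 and DHT, which were given at the same doses but lay in the other of the authors' sets, by 37 members, 11 higher and 26 lower, against 27.2% of all probes (14.7% higher and 12.4% lower). They were 7 and 12 in complex I, 0 and 3 in complex III, 1 and 4 in complex IV, and 3 and 7 in complex V. Under median scaling the split was 46 higher and 1 lower, where the median of all probes was 0.27, and with the chemical as a random block 12 passed, against 11.1% of all probes in that fit. Ndufc2 was lower by 0.47 (ILMN_2976591, -0.47 ± 0.06, limma adjusted p = 3.43e-06) and Atp5j2 by 0.28 (-0.28 ± 0.05, 3.45e-04), and Atp5a1 (ILMN_2633229) was higher (0.41 ± 0.08, 3.25e-04). The chemicals and the sets of arrays cannot be told apart here.

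Within 3 groups of chemicals given at like doses no member passed. E2 against DHT, the F-test over TMD, PMT and CPM, and DEHP against MPA each gave 0 members in limma (0% of all probes), with 14, 4 and 14 members at an unadjusted p under 0.05. These were 12.7%, 3.64% and 12.7% of the members, against 15.2%, 3.16% and 4.64% of all probes. Without the lower dose of E2, 14 members differed between E2 and DHT. The higher dose against the lower one, over the 12 chemicals, gave 0 members against 0.00522% of all probes, with 9 at an unadjusted p under 0.05, or 8.18% against 10.3% of all probes. The strongest of these was Atp5o (ILMN_2917540), a stalk subunit, with 0.20 ± 0.05 (limma adjusted p = 0.182), and a difference of the dose effect between micromolar and nanomolar chemicals passed for 0 members (1 at an unadjusted p under 0.05). In contrast, the F-test over T3, DEX, TCDD and PCB, all given at 1 and 10 nM, gave 34 members (18.3% of all probes), and 10 without the higher dose of PCB.

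Markers of cell types also differed between groups of arrays, though DEHP and MPA parted from the other micromolar chemicals in endoderm and fibroblast markers. Of 9 markers of primitive and visceral endoderm 8 were tested, and Afp was at background on every array. The log2 of their summed signal was 14.40 with DMSO, 14.32 to 14.65 with E2 and DHT, 11.30 and 11.36 with BPA, and 14.53 to 14.70 with T3, DEX and TCDD. It was 13.56 and 13.59 with PCB, 12.91 to 13.19 with TMD, PMT and CPM, and 14.54 to 14.76 with DEHP and MPA. In limma 7 of the 8 were lower with BPA than with E2 and DHT, 7 of 8 lower with PCB than with T3, DEX and TCDD, and 5 of 8 lower with the micromolar chemicals. The 7 markers of pluripotent cells were all detected, at a summed log2 level of 15.68 to 16.32 over all arrays, with 2 higher and 1 lower on the micromolar arrays, 4 higher and 0 lower with PCB than with T3, DEX and TCDD, and 3 higher and 1 lower with BPA than with E2 and DHT. On the micromolar arrays 3 of 3 tested fibroblast markers were lower, of 2 mesoderm markers 2 were lower, of 3 neural markers 1 was higher and of 3 trophoblast markers 1 was lower. The log2 of the summed signal of the fibroblast markers was 7.88 to 8.38 with TMD, PMT and CPM and 9.04 to 9.30 with DEHP and MPA. It was 8.76 to 9.40 on the nanomolar arrays. Postn, Lum, Mixl1, Mesp1, Sox1, Pax6 and Hand1 were at background on every array. The part of these cell types in the differences of the members was not tested.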

How the data were processed

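Members and gene lists were chosen with earlier results of these data known, and so were the alternatives. The intensity values were read from the authors' deposited non-normalized table of Illumina Mouse WG-6 arrays, in which 31.7% to 35.0% of an array's signals lay below 0 after background subtraction; the detection p-value of each probe was deposited beside them. A second deposited table of intensity values had been normalized by the authors in GeneSpring, and served only as an alternative within its sets. The scanner software was not given in the sources used here.

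The background was corrected with nec of limma 3.58.1 in R 4.3.3 (offset 16), and the 25 arrays were quantile-normalized and put on the log2 scale. Testing was limited to the 19140 probes that 2 or more arrays detected at a p below 0.01. Symbols were those of the platform annotation, and all 83 genes matched RefSeq by identifier. One fit with a mean per chemical (12 residual degrees of freedom, eBayes with trend) gave every contrast but those of dose. The higher dose against the lower one came from that fit with a dose term added (11 residual degrees of freedom). The difference of the dose effect came from a fit of the micromolar and nanomolar arrays alone. All p-values were adjusted by Benjamini-Hochberg across every tested probe and called at 0.05. The DMSO array, alone in its group, was assumed to vary like the others. Each array held its own exposure, but nothing states whether the exposures were made from separate starting cultures. The spread between arrays may therefore leave out that between cultures. Probes detected on no array of a group were given as a bound, the mean of the other group over the higher of the lowest detected signal and the probe's own. No depth applies to arrays, and their number limits the precision.

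Genes named are those with the highest and lowest level of a complex, up to 3 per complex and direction with the largest difference among those called in a comparison, the lowest p of the F-test, the isoform families and the other probes of these genes. Further members of a count were named after their values were seen. On simulated data of 19140 probes, changes of 0.5 and 1 were called in 68% and 100% of cases for micromolar against nanomolar chemicals, and in 6% and 42% for PCB against DMSO. In each comparison 18940 probes were left unchanged there, while in the data 48.5% of all probes passed between micromolar and nanomolar chemicals. These rates therefore do not give the sensitivity of the tests reported. Alternatives were another offset, median scaling, other filters, 1 probe per gene, no trend, the dose level as a covariate, the chemical as a random block, the methods' t-test, the authors' table, and leaving out arrays. Promoter sequences were credited to RefSeq (GRCm38.p6).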

Additional observations from a re-analysis of the deposited data

How the results depend on the processing

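When 1 array was left out, the counts of members called for the 12 chemicals together (90 to 98), TMD (24 to 25), PCB (22 to 25) and DEHP (20 to 24) against DMSO, and micromolar against nanomolar chemicals (60 to 72) stayed within 1.5 times the count reported. Without PCB, an alternative chosen after seeing the data, the last was 69. With median scaling the counts were 25 for E2 against DMSO, 18 for BPA, 1 for T3, 0 for DEX, 3 for TCDD, 19 for PCB, 19 for DEHP, 1 for E2 against DHT and 87 for BPA against E2 and DHT. This scaling leaves a shift of all probes between arrays, of -0.40 for E2 against DMSO and 0.51 for BPA against E2 and DHT. Without a filter BPA gave 6, T3 1 and DEX 0 against DMSO, and with only probes detected on all arrays DEX gave 2 and TCDD 2. With 1 probe per gene, and so fewer probes, T3 gave 1, TCDD 1, the F-test over T3, DEX, TCDD and PCB 20 and PCB against T3, DEX and TCDD 28. Without the trend in eBayes BPA gave 5, T3 0, DEX 0 and DEHP 19 against DMSO, that F-test 21, and T3, DEX and TCDD against E2 and DHT 18. The dose level as a covariate gave 2 for DEX and 2 for TCDD. In the authors' table BPA gave 3 against DMSO and 15 against E2 and DHT. With the chemical as a random block 43 members passed between micromolar and nanomolar chemicals and 12 between T3, DEX and TCDD and E2 and DHT. Apart from the settings that hold fewer probes, the cause was not tested.

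Leaving out 1 array gave 0 to 10 members for E2 against DMSO, 7 to 8 for BPA, 0 for T3 and for DEX, 26 to 35 for PMT, 20 to 27 for CPM, and 23 to 36 for MPA. It gave 0 to 14 for E2 against DHT, 13 to 30 for BPA against E2 and DHT, 10 to 33 for the F-test over T3, DEX, TCDD and PCB, 23 to 47 for PCB against T3, DEX and TCDD and 22 to 36 for T3, DEX and TCDD against E2 and DHT. Those farthest from the count reported came without the lower dose of E2 (10 and 14), of BPA (7 and 13), of PMT (26), of DHT (22) and of TCDD (24), and without the higher dose of PCB (10 and 23), of CPM (20) and of MPA (23).

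The median of a complex moved in these cases. For micromolar minus nanomolar chemicals, median scaling gave 0.0563 in complex I, -0.0411 in complex IV and 0.13 in complex V, and the mean over probes -0.0569 in complex III, -0.21 in complex IV and 0.16 in complex V. For PCB minus T3, DEX and TCDD, median scaling gave 0.27 in complex I, 0.0043 in complex III and 0.18 in complex IV, the mean 0.29 in complex I and -0.0067 in complex III, and 1 probe per gene -0.0435 in complex III and 0.16 in complex V. Among single members, the sign turned under median scaling for Ndufv3 (ILMN_3008277) with BPA against E2 and DHT (0.0040) and for Cox7a1 (0.0405) and Uqcr10 (ILMN_3142224, 0.0186) in T3, DEX and TCDD against E2 and DHT. The uncalled differences of Cox4i1 and Cox7a2l between micromolar and nanomolar chemicals, near 0, turned sign with median scaling (0.0797 and 0.097) and without PCB (0.0154 and 0.0459), and ran from -0.0328 to 0.0266 and from -0.0286 to 0.0187 in fits without 1 array. No paired analysis was possible because the labels give no replicate numbers. The 2 arrays of a chemical differ in dose, and the fit with the dose level as a covariate is given above. Probes at background, such as Cox4i2 and Cox6a2 on the micromolar arrays, give only a bound.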
